A study of Homo sapiens with 24 samples.

Results

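Calcitriol given alone was compared with estrogen given alone in B-lymphoblastoid cells after 36 h, which covered 12 of the 24 arrays of the study. The members were chosen by their agent labels: 6 arrays carried the agent calcitriol and 6 the agent estrogen, split evenly between the lines GM10855 and GM10861. The groups were therefore GM10855 with calcitriol, GM10861 with calcitriol, GM10855 with estrogen and GM10861 with estrogen, each with 3 arrays. The other 12 arrays, which held both agents together for 36 h or no agent at 0 h in the same lines, entered the fit and are given beside the results where they bear on them. Both lines are HapMap lines of human B cells immortalised with Epstein-Barr virus, which all groups carry, and each line stands for 1 genetic background. Each line was compared with itself, and the changes of the lines were averaged. Dose, vehicle, medium and the particular estrogen were not given in the sources used here, so equal doses cannot be assumed. Nothing in the labels tells separate cultures from repeat hybridisations within a group. The p-values here rest on the spread among the 3 arrays of a group, pooled over all 8 groups, and that spread could be technical only.

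Calcitriol is the hormonal form of vitamin D. It binds the vitamin D receptor, encoded by VDR, which pairs with a retinoid X receptor such as that encoded by RXRA and binds direct repeats of a hexamer in DNA. Among the best known human targets are CYP24A1, whose enzyme breaks calcitriol down, and CAMP, which encodes the antimicrobial peptide cathelicidin. Estrogens act through the nuclear receptors encoded by ESR1 and ESR2, which bind as pairs to a palindromic element. B cells are known to carry the vitamin D receptor, and the vitamin D system is known for effects on their activation and on plasma cell formation.

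Promoter sequences of 5 genes are shown because these genes are among those the results turn on and because they show what these hexamers look like. They come from RefSeq on GRCh38.p14, start 250 bases before the annotated start of the gene and end 50 bases after it, and are written on the strand of the gene. Capitals mark a hexamer of the kind the vitamin D receptor binds, searched as AGGTCA or AGTTCA and as GGGTCA or GGTTCA on both strands. The CAMP promoter, chr3:48223245-48223544 on the plus strand, held none of these words. The promoter of ZNF589, the gene next to CAMP, at chr3:48240854-48241153 on the plus strand, held AGGTCA from position -149. That of CD38, chr4:15778078-15778377 on the plus strand, held GGGTCA from position -134. That of CD79A, chr19:41877029-41877328 on the plus strand, held TGAACC from position -238, which is GGTTCA on the other strand. That of CCR2, chr3:46353861-46354160 on the plus strand, held GGTTCA from position +11.
CAMP: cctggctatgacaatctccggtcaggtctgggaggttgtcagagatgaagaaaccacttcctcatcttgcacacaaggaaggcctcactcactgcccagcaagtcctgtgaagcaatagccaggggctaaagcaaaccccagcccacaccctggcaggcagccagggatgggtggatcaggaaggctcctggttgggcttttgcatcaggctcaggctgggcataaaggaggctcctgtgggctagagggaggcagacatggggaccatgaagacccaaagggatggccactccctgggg
ZNF589: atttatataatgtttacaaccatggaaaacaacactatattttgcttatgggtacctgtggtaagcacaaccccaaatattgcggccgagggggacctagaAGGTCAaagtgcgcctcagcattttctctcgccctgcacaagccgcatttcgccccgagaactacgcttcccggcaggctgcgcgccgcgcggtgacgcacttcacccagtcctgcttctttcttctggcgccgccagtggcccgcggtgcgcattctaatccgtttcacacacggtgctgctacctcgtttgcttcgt
CD38: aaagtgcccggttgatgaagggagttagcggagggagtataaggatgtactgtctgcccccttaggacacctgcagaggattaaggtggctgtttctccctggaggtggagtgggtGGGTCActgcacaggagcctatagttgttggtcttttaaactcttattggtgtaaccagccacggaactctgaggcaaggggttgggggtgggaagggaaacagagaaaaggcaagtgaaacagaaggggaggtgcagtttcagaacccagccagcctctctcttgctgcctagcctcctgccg
CD79A: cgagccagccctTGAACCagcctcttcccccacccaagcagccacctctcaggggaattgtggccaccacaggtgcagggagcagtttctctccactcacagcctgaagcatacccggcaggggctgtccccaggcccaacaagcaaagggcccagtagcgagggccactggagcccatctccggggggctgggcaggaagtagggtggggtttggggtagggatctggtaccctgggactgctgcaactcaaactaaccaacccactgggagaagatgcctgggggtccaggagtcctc
CCR2: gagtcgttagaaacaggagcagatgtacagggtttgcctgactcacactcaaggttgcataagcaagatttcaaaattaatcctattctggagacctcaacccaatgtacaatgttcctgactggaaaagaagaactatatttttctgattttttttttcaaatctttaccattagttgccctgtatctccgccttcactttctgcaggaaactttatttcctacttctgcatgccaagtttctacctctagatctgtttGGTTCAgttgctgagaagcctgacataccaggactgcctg

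At least 1 such hexamer was present in 14 of the 24 promoters (58.3%) listed for 12 of the 15 genes with the largest rises. It was present in 3 of the 15 promoters (20%) listed for the 13 named genes that fell, and in 13548 of all 35116 promoters (38.6%). A pair of hexamers in the same direction with 3 bases between them was found in 0 promoters of the rises, 0 of the falls and 26 of all (0.074%). The palindromic estrogen response element, searched as GGTCA and then TGACC with 3 bases between them, was found in 0, 0 and 20 promoters (0.057%). A gene with several listed promoters was counted once for each, so the shares are of promoters and not of genes. These counts describe letters in windows of this length and give no information on binding.

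The 12 arrays were alike in overall signal, with medians between 5.41 and 5.47 on the log2 scale. Arrays of a group correlated at 0.990 to 0.995 across probe sets, arrays of the same line with the other agent also at 0.990 to 0.995, and arrays of different lines at 0.976 to 0.979. No pair of arrays held identical values. The B cell gene MS4A1 read 10.82 to 10.97 with calcitriol and 10.39 to 11.04 with estrogen, and the plasma cell gene JCHAIN 11.47 to 13.06 with calcitriol and 11.51 to 13.01 with estrogen. The T cell gene CD3E read 4.45 to 4.59 with calcitriol and 4.26 to 4.91 with estrogen, and the monocyte gene LYZ 2.72 to 3.25 with calcitriol and 2.65 to 3.28 with estrogen. Levels of different probe sets cannot be set against each other exactly, so these values are only a rough check of the labelled cell type.

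Calcitriol and estrogen differed in a small set of genes, most of which were higher with calcitriol. Of 21214 probe sets with a gene symbol, 121 (0.57%) passed limma's test at an adjusted p below 0.05. Of these, 104 (0.49%) were higher with calcitriol than with estrogen and 17 (0.0801%) were lower. At an unadjusted p below 0.05 the balance was different, with 678 probe sets higher and 899 lower, and the median difference over all probe sets was -0.01. The called rises stood for 92 distinct genes with a symbol of their own and the called falls for 17, and 7 called probe sets carried several symbols. The called rises had a median of 0.38 on the log2 scale and ranged up to 2.33, while the called falls had a median of -0.33 and reached -0.57. All calcitriol arrays lay above all estrogen arrays in both lines for 86 of the 104 rises, where 0.811% of all probe sets did so. They lay below them for 13 of the 17 falls, where 0.57% of all probe sets did so. These rises and falls were called on the same arrays, so both counts only describe them and are not separate evidence. Over all probe sets the averaged difference had a median SE of 0.0742, and the 95% interval reached a median of 0.15 to either side.

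The largest difference was in CAMP, whose product cathelicidin is an antimicrobial peptide. Its log2 signal was 8.63, 8.47 and 8.72 in GM10855 with calcitriol, against 6.15, 6.02 and 5.65 with estrogen. In GM10861 it was 8.14, 7.86 and 8.11 with calcitriol, against 6.10, 6.13 and 5.88 with estrogen. Every calcitriol array lay well above every estrogen array, and the averaged difference of 2.33 ± 0.102 (SE) corresponded to 5.04-fold (limma, adjusted p = 3.85e-13). ZNF589, which lies beside CAMP on chromosome 3 and encodes a zinc finger protein, was also higher with calcitriol, by 0.86 (adjusted p = 1.14e-06). Its signal was 7.90, 7.92 and 7.93 with calcitriol in GM10855, against 6.89, 6.44 and 6.93 with estrogen. In GM10861 it was 7.41, 7.47 and 7.65 with calcitriol, against 6.82, 7.14 and 6.92 with estrogen. ZNF589 thus differed by 1.17 in GM10855 and by 0.55 in GM10861, where it was not called by itself (adjusted p = 0.108). The other neighbours did not pass the test, with averaged differences of 0.15 for CDC25A, -0.04 for MAP4 and 0.09 for NME6. These averages joined unlike lines. NME6 differed by 0.45 in GM10855 and -0.28 in GM10861, CDC25A by 0.29 in GM10855 and 0.02 in GM10861. MAP4 differed by -0.11 in GM10855 and 0.02 in GM10861.

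CYP24A1, encoding the enzyme that inactivates calcitriol, had the second largest difference on the deposited scale. It read 4.90, 5.0 and 5.02 in GM10855 with calcitriol, against 3.52, 3.80 and 3.47 with estrogen. In GM10861 it read 6.11, 6.21 and 6.08 with calcitriol, against 3.48, 3.20 and 3.61 with estrogen. The groups did not overlap, and the averaged difference was 2.04 ± 0.115 (SE), or 4.10-fold on that scale (adjusted p = 4.76e-11). The estrogen arrays all read below 3.99, the lowest lower quartile of any of the 12 arrays, and were not shown to be above background. RMA compresses differences that start from such dim signals, so the fold and its rank may be too low.

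STS encodes steroid sulfatase, which frees estrogens and other steroids from their sulfate esters. Its signal was 7.09, 7.21 and 7.13 in GM10855 with calcitriol, against 5.29, 5.32 and 5.10 with estrogen, and 7.54, 7.55 and 7.52 in GM10861 with calcitriol, against 6.01, 6.04 and 6.07 with estrogen. The averaged difference of 1.70 ± 0.0607 (SE), 3.25-fold, had the smallest p-value of the comparison (adjusted p = 8.28e-15), and the arrays of each group lay close together. SULF2, an extracellular enzyme that removes sulfate groups from heparan sulfate chains, was 0.72 higher (adjusted p = 1.57e-05). No other measured member of the sulfatase and steroid sulfation list passed the test. The 2 of 20 members called higher stood beside 0.5% of all genes. This list, like those below, was chosen with earlier results of these data known, so its count is not independent evidence.

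Of the genes for the vitamin D, retinoid X and estrogen receptors described here, VDR alone passed the test. VDR was 5.38, 5.50 and 5.60 in GM10855 with calcitriol, against 5.03, 5.08 and 4.95 with estrogen, and 5.35, 5.25 and 5.28 in GM10861 with calcitriol, against 4.98, 4.96 and 5.05 with estrogen. These groups did not overlap, and VDR was 1.31-fold higher with calcitriol (log2 0.38, adjusted p = 0.00158). RXRA, the partner receptor, differed by -0.12 with a 95% interval of -0.26 to 0.02 (adjusted p = 0.752), and CYP27B1, whose enzyme makes calcitriol, by -0.07 with an interval of -0.25 to 0.11 (adjusted p = 0.923). The estrogen receptor genes gave dim signals, ESR1 between 4.24 and 4.82 and ESR2 between 4.58 and 5.25 over the 12 arrays. ESR1 differed by -0.04 with an interval of -0.22 to 0.13 and ESR2 by 0.07 with an interval of -0.08 to 0.22, and neither passed the test. Without the GM10855 estrogen array of replicate 2, the difference in ESR1 was 0.05.

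**Figure D1:**
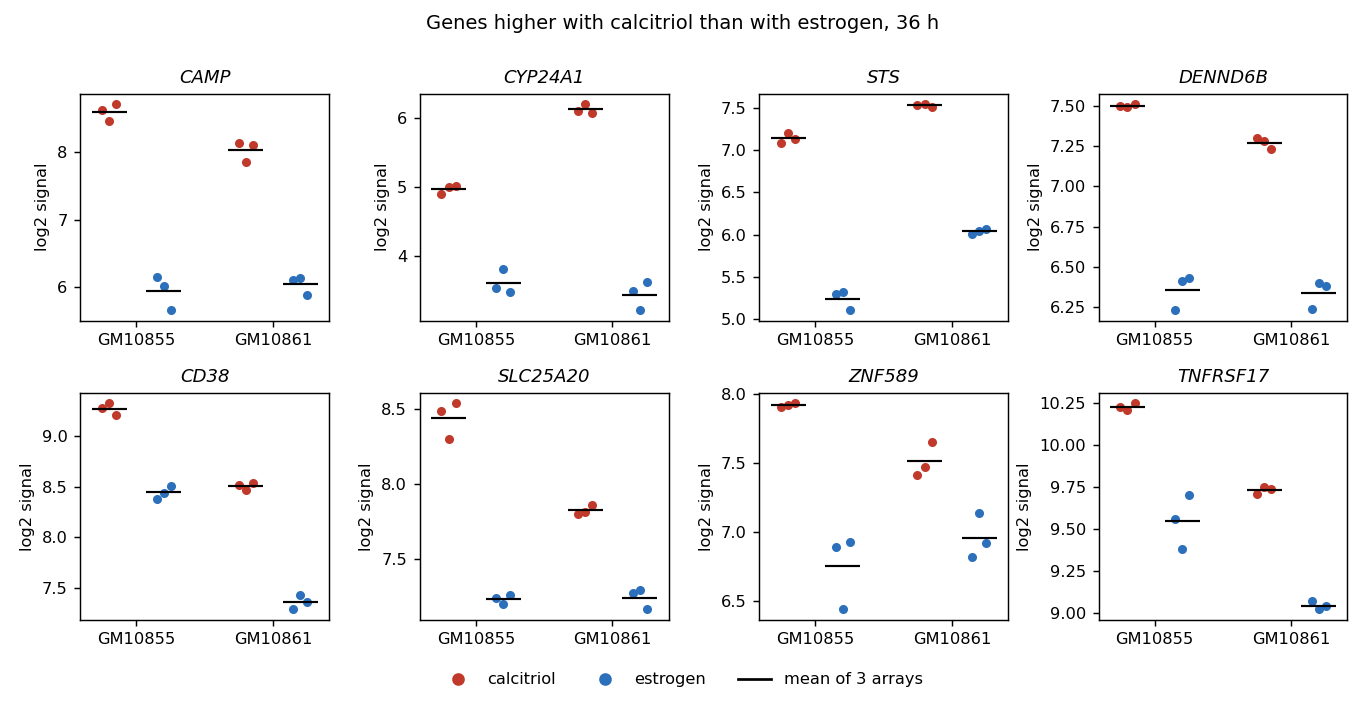
Log2 signal of 8 genes that were higher with calcitriol than with estrogen, 1 panel per gene. Each point is 1 array, red for calcitriol and blue for estrogen, the horizontal bars are means of 3 arrays, and each panel has its own vertical scale. In every panel the calcitriol arrays of a line lie above its estrogen arrays, and CYP24A1 reads between 6.08 and 6.21 with calcitriol in GM10861 but between 4.90 and 5.02 in GM10855.

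Several of the genes that rose are known from B cells and plasma cells. CD38 encodes a surface enzyme that consumes NAD and is abundant on plasma cells. Its signal was 9.27, 9.32 and 9.20 in GM10855 with calcitriol, against 8.38, 8.44 and 8.51 with estrogen, and in GM10861 it was 8.52, 8.47 and 8.53 with calcitriol, against 7.29, 7.43 and 7.36 with estrogen. The groups did not overlap, and the averaged difference was 0.98, or 1.98-fold (adjusted p = 3.75e-10).

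CD79A encodes a signalling chain of the B cell antigen receptor. It read 9.41, 9.30 and 9.57 in GM10855 with calcitriol, against 8.31, 8.22 and 8.20 with estrogen, and 9.16, 9.09 and 9.0 in GM10861 with calcitriol, against 8.68, 8.51 and 8.67 with estrogen. It was 0.82 higher on average, or 1.77-fold (adjusted p = 1.01e-08), again with no overlap. CR2, the complement receptor that Epstein-Barr virus uses to enter B cells, was 0.32 higher (adjusted p = 0.00889). These were the 2 called members among 18 measured B cell markers, beside 0.5% of all genes called higher. Of the 18 markers, 11 were higher and 7 lower. The list median was 0.08, beside -0.01 over all 18418 genes, but by line it was 0.14 in GM10855 and 0.0016 in GM10861.

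TNFRSF17 encodes BCMA, a survival receptor of plasma cells. It read 10.23, 10.21 and 10.25 in GM10855 with calcitriol, against 9.56, 9.38 and 9.70 with estrogen, and 9.71, 9.75 and 9.74 in GM10861 with calcitriol, against 9.07, 9.02 and 9.04 with estrogen. The difference was 0.68 in GM10855 and 0.69 in GM10861, and the averaged value passed the test at an adjusted p of 6.14e-09. TENT5C, a poly(A) polymerase active in plasma cells, was 0.69 higher (adjusted p = 1.86e-08), with 9.69, 9.62 and 9.76 in GM10855 with calcitriol, against 9.06, 9.03 and 9.13 with estrogen. CD38 and TNFRSF17 were the 2 of 15 measured plasma cell markers that were called, beside 0.5% of all genes called higher. Of the 15 markers, 12 were higher and 3 lower. The plasma cell list had the highest median of all lists in the averaged comparison, 0.11. By line its median was 0.07 in GM10855, where that of the B cell list was 0.14, and 0.08 in GM10861. The mean signal of the plasma cell list was 8.63 with calcitriol and 8.43 with estrogen in GM10855, and 8.06 with calcitriol and 7.92 with estrogen in GM10861. The part that a shift in the mix of cell states plays in these values was not tested, and in bulk RNA fewer cells of a type and less RNA per cell cannot be told apart.

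The remaining genes among the 15 largest rises had varied roles. DENND6B, whose DENN domain marks exchange factors for Rab proteins of vesicle traffic, was 2.05-fold higher with calcitriol (log2 1.03, adjusted p = 4.36e-12). Its 6 calcitriol arrays read 7.23 to 7.51 and its 6 estrogen arrays 6.23 to 6.43. SLC25A20, the mitochondrial carrier that exchanges acylcarnitines for carnitine, was 1.86-fold higher (log2 0.90, adjusted p = 8.11e-10). It read 8.49, 8.30 and 8.54 in GM10855 with calcitriol, against 7.24, 7.20 and 7.26 with estrogen, and the difference was 1.21 in that line and 0.59 in GM10861. SLC25A20 was the only called gene of 18 measured for the carnitine shuttle and fatty acid oxidation, beside 0.5% of all genes called higher.

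ITM2C, a membrane protein of the BRI family, was 0.76 higher (adjusted p = 1.11e-09), and CLMN, which encodes the actin-binding protein calmin, was 0.75 higher (adjusted p = 1.24e-07). SERINC2, of a family of membrane proteins linked to serine incorporation into lipids, was 0.69 higher on the probe set named here (adjusted p = 1.07e-06), but a second probe set of the gene gave 0.01 (adjusted p = 0.99). TRIM31, an E3 ubiquitin ligase, was 0.67 higher (adjusted p = 0.00421), and both of its further probe sets gave 0.57 and were also called. The further probe set at an adjusted p of 0.016 lost its call in 4 of the 12 fits that left out an array. In neither line by itself was the named probe set of TRIM31 called (adjusted p = 0.178 in GM10855 and 0.118 in GM10861). For all 15 genes the calcitriol arrays lay above the estrogen arrays in both lines.

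The falls were fewer and smaller. CCR2 encodes a chemokine receptor best known on monocytes. It read 4.05, 4.0 and 4.17 in GM10855 with calcitriol, against 4.89, 4.57 and 4.94 with estrogen, and 3.99, 4.05 and 3.96 in GM10861 with calcitriol, against 4.32, 4.64 and 4.28 with estrogen. The calcitriol arrays lay below the estrogen arrays in both lines, and the averaged difference was -0.57 (1.48-fold lower, adjusted p = 0.00118). The calcitriol arrays lay close to the lowest lower quartile of 3.99 and were not shown to be above background, so the size of this difference is uncertain. A second probe set of CCR2 gave -0.52 without passing the test (adjusted p = 0.087). The 14 measured monocyte and macrophage markers included no called gene. Their mean signal was 4.80 with calcitriol and 4.87 with estrogen in GM10855, and 4.71 with calcitriol and 4.74 with estrogen in GM10861.

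ACOXL encodes a protein related to acyl-CoA oxidases. It read 6.54, 6.50 and 6.53 in GM10855 with calcitriol, against 7.01, 6.65 and 7.03 with estrogen, and 4.86, 4.50 and 4.50 in GM10861 with calcitriol, against 5.33, 5.27 and 4.99 with estrogen. The difference was -0.47 (adjusted p = 0.00389) with no overlap within a line. HGF, the hepatocyte growth factor, read 5.67, 5.47 and 5.42 in GM10855 with calcitriol, against 6.17, 5.89 and 5.93 with estrogen. In GM10861 it read 3.96, 3.87 and 4.25 with calcitriol, against 4.36, 4.42 and 4.59 with estrogen. Its averaged difference was -0.45 (adjusted p = 0.0248). The GM10861 calcitriol arrays lay close to the lowest lower quartile of 3.99 and were not shown to be above background, so the size of this difference is uncertain. CD109, a surface protein that binds transforming growth factor beta, differed by -0.38 (adjusted p = 0.00331), with 5.84, 5.82 and 5.89 in GM10861 with calcitriol, against 6.11, 6.43 and 6.08 with estrogen. CCDC88A encodes girdin, an actin-binding regulator of cell migration, and differed by -0.33 (adjusted p = 0.0069).

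The other named falls were RPS6KA5, which encodes the histone kinase MSK1, at -0.41, TGFBR3, a coreceptor for transforming growth factor beta, at -0.35, SYT10, a synaptotagmin, at -0.30, and LRIG2, a membrane protein with leucine-rich repeats, at -0.30. EEIG2 followed at -0.29, CDK14, a cyclin-dependent kinase, at -0.25, E2F7, a repressor of E2F target genes, at -0.25, and AHNAK, a very large scaffold protein, at -0.21. The remaining called falls were small RNA genes or pseudogenes, which were not named. Arrays of both agents overlapped in at least 1 line for TGFBR3, SYT10 and EEIG2. When each of the 12 arrays was left out in turn, CCR2, ACOXL, CD109 and CCDC88A passed the test in all 12 fits. The calls were lost in 5 of the 12 fits for RPS6KA5 (adjusted p up to 0.0837), in 7 for HGF (up to 0.099), in 8 for LRIG2, SYT10 and TGFBR3 (up to 0.128), in 9 for EEIG2 (up to 0.114), in 10 for CDK14 and E2F7 (up to 0.138) and in 11 for AHNAK (up to 0.103). The called falls as a whole therefore numbered between 6 and 16 in these fits, and the called rises between 83 and 100.

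Comparisons with the remaining arrays place these differences beside the levels at 0 h, and they share arrays with the direct comparison, so only their values are set side by side. Estrogen against untreated cells had 0 called probe sets in limma, where 1097 had an unadjusted p below 0.05 and the smallest adjusted p was 0.0717. Calcitriol against untreated cells had 144 (0.679%), 131 higher (0.618%) and 13 lower (0.0613%). Both agents against estrogen alone had 160 (0.754%), 144 higher (0.679%) and 16 lower (0.0754%), and both agents against calcitriol alone had 0 in limma, where 1772 had an unadjusted p below 0.05. CAMP differed by 2.46 with calcitriol and 0.13 with estrogen, each against untreated cells, CYP24A1 by 2.06 with calcitriol and 0.02 with estrogen, STS by 1.89 with calcitriol and 0.19 with estrogen, and CD38 by 1.0 with calcitriol and 0.02 with estrogen. Averaged over both lines, the estrogen means of these 4 genes thus lay within 0.19 of the untreated level, and the calcitriol means lay at least 1.0 above it. The untreated arrays were taken at 0 h, so agent and time in culture cannot be told apart in these values.

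Among the falls the picture was mixed. HGF was -0.53 with calcitriol (adjusted p = 0.00483) and -0.08 with estrogen (adjusted p = 0.983), each against untreated cells, and CCR2 was -0.44 with calcitriol (adjusted p = 0.0131) and 0.12 with estrogen (adjusted p = 0.978). CCDC88A was -0.29 with calcitriol (adjusted p = 0.0201) and 0.04 with estrogen (adjusted p = 0.991). For CD109 the values were -0.19 with calcitriol and 0.19 with estrogen, for TGFBR3 -0.16 with calcitriol and 0.19 with estrogen, and for LRIG2 -0.14 with calcitriol and 0.16 with estrogen. The untreated means of these last 3 genes lay between those of the agents, and none of the 6 differences from untreated cells passed the test.

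**Figure D2:**
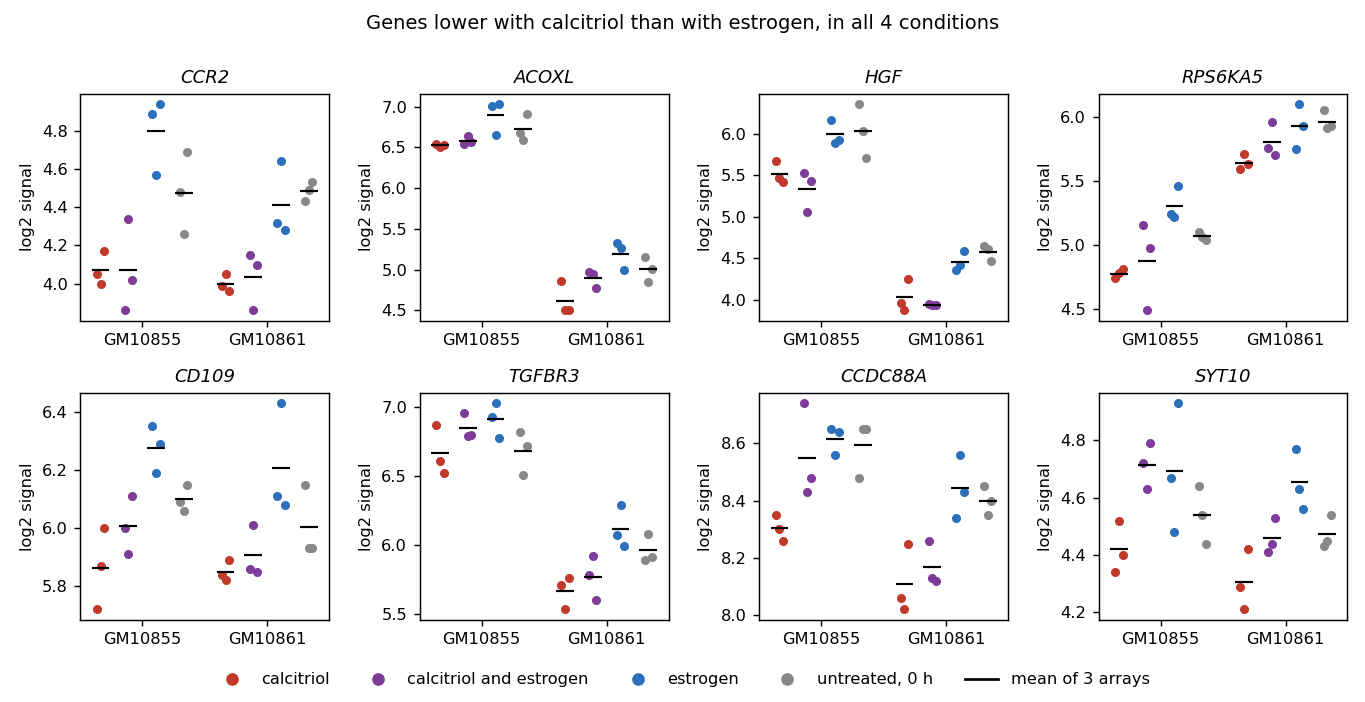
Log2 signal of 8 genes that were lower with calcitriol than with estrogen, 1 panel per gene, with all 4 conditions of each line. Each point is 1 array (red calcitriol, purple calcitriol and estrogen together, blue estrogen, grey untreated at 0 h), the bars are means of 3 arrays, and the vertical scales differ between panels. For CCR2 and HGF the arrays with both agents lie near those with calcitriol, while for SYT10 in GM10855 they lie near those with estrogen.

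Cells that received both agents, set against untreated cells, share no array with the direct comparison. That comparison was added after the values were seen, and it had 243 called probe sets (1.15%). All 104 probe sets that were higher with calcitriol than with estrogen were also higher with both agents than without, where 49.6% of all probe sets were, and 85 of them were called there, beside 0.995% of all probe sets called higher. Their median was 0.40. Of the 17 that were lower with calcitriol than with estrogen, 12 were lower with both agents than without and 5 higher, and 3 were called lower, beside 0.151% of all. Their median was -0.06. Agents and time in culture cannot be told apart here either.

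The called differences mostly had the same direction in both lines, and most were larger in GM10855. In GM10855 by itself 123 probe sets (0.58%) were called between calcitriol and estrogen, 109 higher (0.514%) and 14 lower (0.066%). In GM10861 there were 18 (0.0848%), all higher, and 0 were called lower by limma. At an unadjusted p below 0.05 that line had 1090 of 21214 probe sets, 357 higher and 733 lower. Both lines shared 17 calls, which were 13.8% of those of GM10855 and 94.4% of those of GM10861. Beside CAMP, CYP24A1, STS, DENND6B, CD38, SLC25A20, CD79A, ITM2C, SULF2, SERINC2, TENT5C and TNFRSF17 they included LGMN, IL17RB, NAPSA, MBNL2 and PTP4A1. Of the calls of GM10855, 112 (91.1%) had the same sign in GM10861, and of those of GM10861 all 18 (100%) had the same sign in GM10855, where 49.4% of all probe sets did. The lines share no array, but their tests took the spread of a probe set from the same fit, so their calls are not independent. Over all probe sets the differences of the lines correlated at 0.105, which is across genes that are not independent replicates. Of the 104 averaged rises, 84 were larger in GM10855, with a median of 0.52 there and 0.29 in GM10861.

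**Figure D3:**
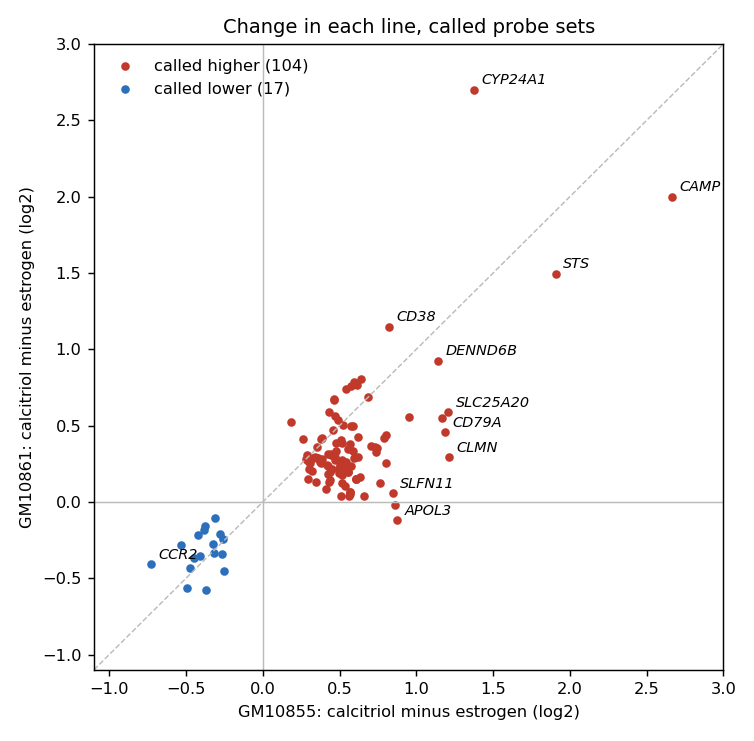
Calcitriol minus estrogen in log2 units in GM10855 on the horizontal axis and in GM10861 on the vertical axis, for the 104 probe sets called higher (red) and the 17 called lower (blue) in the averaged comparison. The dashed line marks equal differences in both lines. Most red points lie below it, CYP24A1 lies far above it at 1.37 in GM10855 and 2.70 in GM10861, and APOL3 lies just below 0 in GM10861.

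The difference between the lines passed its own test for 5 genes (0.0236%), 1 with the larger difference in GM10861 (0.00471%) and 4 with the larger difference in GM10855 (0.0189%). In CYP24A1 the larger difference was that in GM10861, where calcitriol exceeded estrogen by 2.70, against 1.37 in GM10855. The lines thus differed by 1.33 (adjusted p = 0.0326) on the deposited scale, with estrogen arrays in both lines that were not shown to be above background. Its calcitriol means were 4.97 in GM10855 and 6.13 in GM10861, and its estrogen arrays overlapped between the lines.

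APOL3, an apolipoprotein L family member, read 7.57, 7.36 and 7.38 in GM10855 with calcitriol, against 6.65, 6.63 and 6.41 with estrogen. In GM10861 it read 6.35, 6.12 and 6.17 with calcitriol, against 6.27, 6.25 and 6.48 with estrogen, and the agents overlapped. The difference was 0.87 in GM10855 and -0.12 in GM10861 (line difference -0.99, adjusted p = 0.00363).

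CLMN read 6.11, 6.13 and 6.25 in GM10855 with calcitriol, against 4.90, 4.96 and 5.01 with estrogen. In GM10861 it read 6.59, 6.49 and 6.47 with calcitriol, against 6.11, 6.26 and 6.30 with estrogen. The agents were separate in both lines, and the difference of 0.29 in GM10861 was smaller than the 1.21 in GM10855 by 0.92 (adjusted p = 0.00461). SLFN11, a protein that blocks replication in stressed cells, read 6.62, 6.45 and 6.81 in GM10855 with calcitriol, against 5.84, 5.68 and 5.81 with estrogen. In GM10861 it read 7.26, 7.30 and 7.40 with calcitriol, against 7.28, 7.30 and 7.21 with estrogen, so that line already had the higher signal with either agent. The line difference of SLFN11 was -0.79 (adjusted p = 0.0257), and that of CD79A was -0.73 (adjusted p = 0.0326).

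With each array left out in turn, the line differences of APOL3 and CLMN passed in all 12 fits. Those of SLFN11, CD79A and CYP24A1 were lost in 8, 10 and 11 of the 12 fits, with adjusted p up to 0.113, 0.167 and 0.161.

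**Figure D4:**
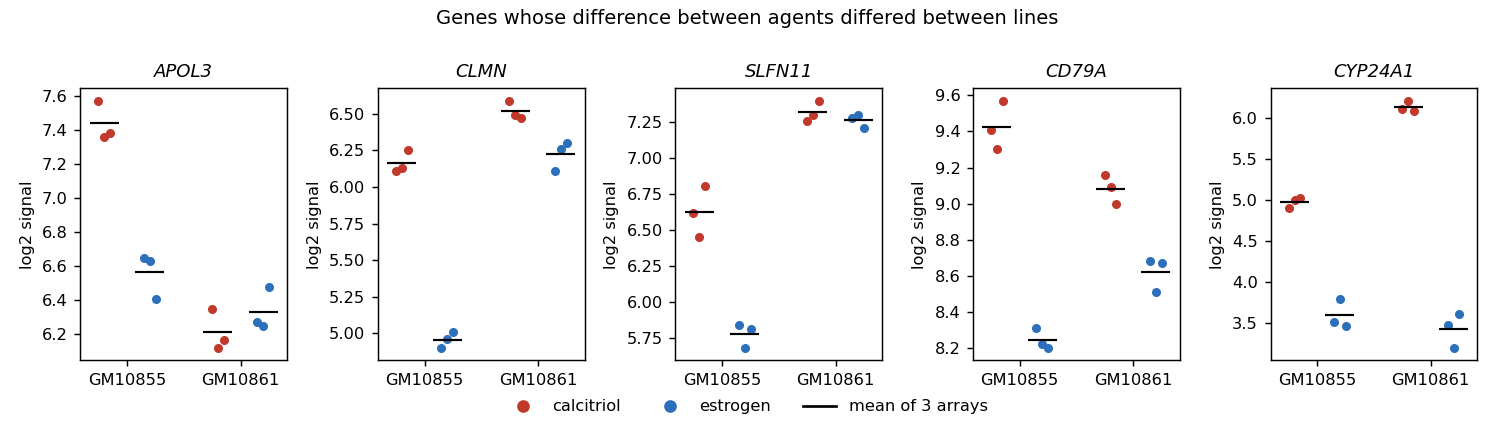
Log2 signal of the 5 genes whose difference between agents differed between the lines, 1 panel per gene with its own vertical scale. Points are arrays, red for calcitriol and blue for estrogen, and bars are means of 3 arrays. APOL3 and SLFN11 separate by agent in GM10855 and not in GM10861, and CYP24A1 has the wider separation in GM10861.

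Genes known for a place in vitamin D or estrogen biology were described as lists, by counts of called members beside 0.5% of all genes called higher and 0.0923% called lower. Of 43 measured vitamin D receptor targets, 10 were higher with calcitriol and 0 lower, with a median of 0.09. They were CAMP, CYP24A1, STS, CD38, DENND6B, SLC25A20, ZNF589, CLMN, VDR and G0S2, an inhibitor of triglyceride breakdown that was 0.53 higher (adjusted p = 7.61e-05). STS, CD38, DENND6B, SLC25A20, ZNF589 and CLMN stand on this list with earlier results of these arrays known, so its count is not independent evidence. Other targets, well known from other tissues, did not pass the test. They included the calcium channel gene TRPV6 at 0.03, the cell cycle inhibitor CDKN1A at 0.14, the monocyte receptor CD14 at -0.14 and the bone matrix protein gene SPP1 at -0.02. Of 14 genes of vitamin D metabolism and its receptor complex, CYP24A1 and VDR were called.

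Of 27 classic estrogen response genes, IL17RB, a receptor for interleukin 25, was the only called member, and it was higher with calcitriol, by 0.40 (adjusted p = 1.65e-04). Against untreated cells at 0 h, IL17RB was 0.44 with calcitriol (adjusted p = 3.81e-05) and 0.04 with estrogen (adjusted p = 0.985). Agent and time in culture cannot be told apart in these 2 values. It read 7.39, 7.34 and 7.39 in GM10855 with calcitriol, against 7.16, 6.82 and 6.97 with estrogen, and 8.33, 8.37 and 8.35 in GM10861 with calcitriol, against 8.03, 7.83 and 7.93 with estrogen, with no overlap. The progesterone receptor gene PGR differed by -0.01, GREB1 by 0.01, TFF1 by 0.03 and MYC by 0.11, none of them past the test. Of the 27 members, 19 were higher and 8 lower with calcitriol, from -0.27 to 0.40, and the list had a median of 0.03. Among 18 genes of estrogen receptors and estrogen metabolism, STS and CYP19A1 were higher with calcitriol. CYP19A1, which encodes aromatase, the enzyme that makes estrogens from androgens, differed by 0.44 (adjusted p = 0.00688). It read 4.26, 4.20 and 4.28 in GM10855 with calcitriol, against 3.41, 3.71 and 3.34 with estrogen. In GM10861 it read 3.28, 3.61 and 3.53 with calcitriol, against 3.22, 3.56 and 3.27 with estrogen, and there the agents overlapped. The difference was 0.76 in GM10855 and 0.12 in GM10861 (adjusted p = 0.994). The estrogen arrays of both lines and the GM10861 calcitriol arrays read below 3.99, the lowest lower quartile. They were not shown to be above background, so the size of the CYP19A1 difference is uncertain.

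Antigen presentation and surface signalling gave further rises. LGMN, the lysosomal protease legumain, read 10.64, 10.62 and 10.70 in GM10855 with calcitriol, against 10.14, 10.23 and 9.97 with estrogen, and was 0.64 higher on average (adjusted p = 3.86e-07). CTSZ, the lysosomal protease cathepsin Z, was 0.62 higher (adjusted p = 1.21e-05). They were the 2 called members of 18 in the list of MHC class II presentation and lysosomal proteases. Of 23 ligands and receptors of the TNF family, TNFRSF17 and TNFSF4, the ligand of OX40, were called, the second with 0.52 (adjusted p = 3.96e-05). Of 15 coinhibitory and costimulatory surface proteins, the inhibitory receptor gene BTLA was 0.32 higher (adjusted p = 0.00158) and CD200, a ligand that restrains myeloid cells, was also 0.32 higher (adjusted p = 0.00814).

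Of 18 chemokine receptors, CCR10, a receptor for skin and mucosal chemokines found on antibody-secreting cells, was higher with calcitriol and CCR2 was lower. CCR10 read 8.52, 8.46 and 8.82 in GM10855 with calcitriol, against 8.08, 8.06 and 8.16 with estrogen, and 7.95, 7.91 and 7.95 in GM10861 with calcitriol, against 7.81, 7.51 and 7.77 with estrogen. The groups did not overlap, and the difference was 0.37 (adjusted p = 0.00299). Among 24 cytokines of lymphocytes and their receptors HGF was the only call, and it was lower.

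Few metabolic and stress genes passed the test. Of 24 ATF4 and amino acid stress targets, DDIT4, an inhibitor of mTORC1, was 0.60 higher (adjusted p = 5.74e-05) and PHGDH, the entry enzyme of serine synthesis, was 0.33 higher (adjusted p = 0.0027). DDIT4 was also the only call among 29 hypoxia and glycolysis genes. Of 16 genes of NAD metabolism only CD38 was called, and of 17 genes of triglyceride storage and lipolysis only G0S2. Of 19 immediate early genes ZFP36, whose product speeds the decay of cytokine mRNAs, was 0.46 higher (adjusted p = 0.0424), a call lost in 10 of the 12 fits that left out an array (adjusted p up to 0.154).

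In 18 of the 36 lists no member was called in the averaged comparison. Of 32 NF-kB targets and inflammatory cytokines the smallest p-values belonged to LTA at 0.29 (adjusted p = 0.0739), CCL22 at 0.33 (adjusted p = 0.189) and TNF at 0.175 (adjusted p = 0.208). Of the 32 members, 18 were higher and 14 lower, from -0.35 to 0.33. Further probe sets of LTA gave averaged differences of 0.24 (adjusted p = 0.251) and 0.20 (adjusted p = 0.343). In GM10855 by itself LTA, at 0.50 (adjusted p = 0.0171), and TNF, at 0.33 (adjusted p = 0.0351), were called on the probe sets named here. In GM10861 LTA differed by 0.08 (adjusted p = 0.994) and TNF by 0.02 (adjusted p = 0.995). None of 41 interferon-stimulated genes passed, and the smallest p-values among them belonged to PARP9 at -0.21 (adjusted p = 0.307), DTX3L at -0.17 (adjusted p = 0.422) and ISG20 at 0.15 (adjusted p = 0.435). None of 30 genes of G2/M and mitosis passed, with a list median of -0.03 and with CDC25B at 0.19, MKI67 at -0.09 and KIF2C at -0.08. The same held for 29 genes of G1/S and DNA replication, 30 of oxidative phosphorylation, 27 cytosolic ribosomal proteins, 24 MYC targets, 17 heat shock chaperones, 20 genes of the unfolded protein response, 18 NRF2 targets, 17 genes of sterol synthesis, 21 p53 targets and 15 BCL2 family genes. Markers of other cell types held 0 calls as well, of 13 for T cells, 12 for NK cells, 14 for monocytes, 7 for erythroid cells and 12 for fibroblasts. Over all 36 lists the medians lay between -0.05 and 0.11, and a p above the threshold does not show that the agents acted alike on these genes.

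**Figure D5:**
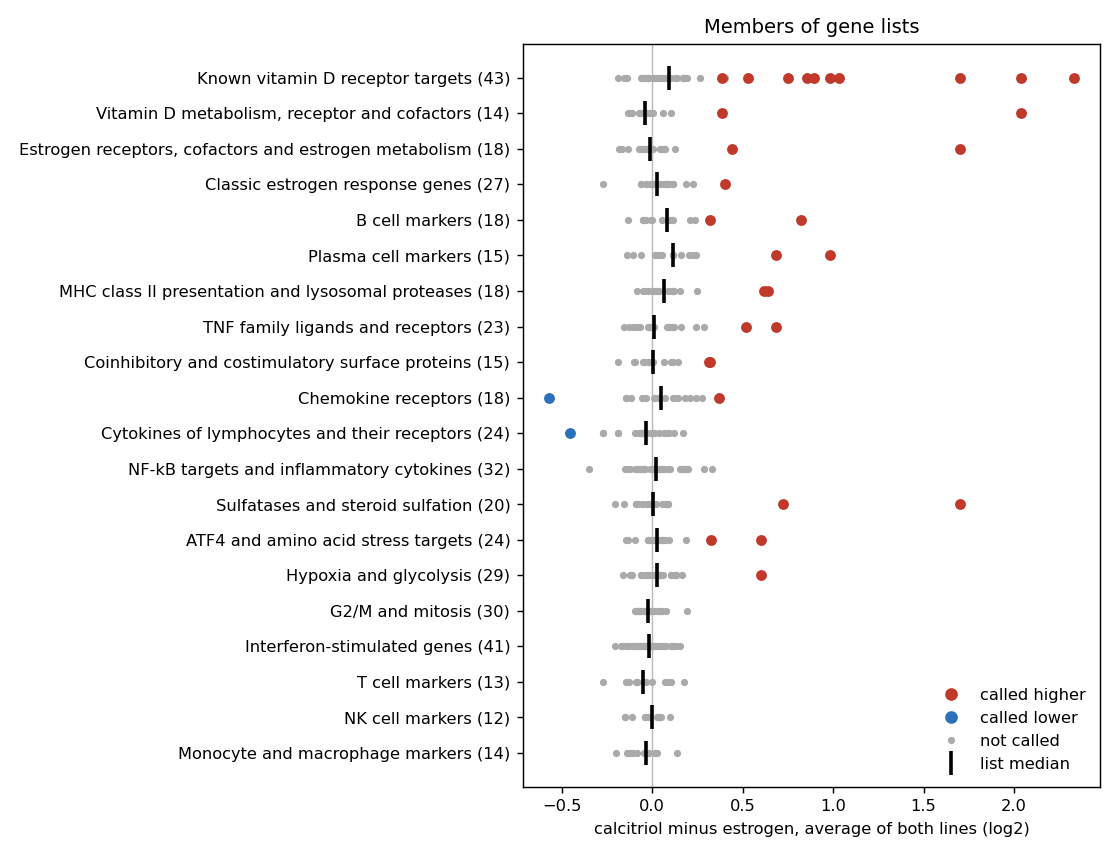
Calcitriol minus estrogen in log2 units, averaged over both lines, for the members of selected gene lists, with the number of measured members in brackets. Large points are genes called higher (red) or lower (blue), small grey points are members that were not called, and black bars are list medians. The vitamin D receptor targets hold 10 red points, and blue points appear only among the chemokine receptors (CCR2) and the lymphocyte cytokines (HGF) of the lists drawn.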

How the data were processed

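Per the labels' protocols, an Exiqon kit supplied the RNA and Affymetrix's whole-transcript method the biotinylated cDNA. The authors deposited log2 signals for each probe set. The submitters' processing notes name RMA and Affymetrix Expression Console 1.0.1. RMA equalises the distributions of arrays, which removes any shift common to most genes, and it compresses differences of dim probe sets. No detection calls were used, and the number of arrays limits the precision. Of 33297 probe sets, 19460 had 1 symbol, 1754 several and 12083 none. Of those with 1 symbol, 19429 matched a GRCh38.p14 gene by Entrez ID.

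On the deposited log2 values, limma 3.58.1 in R 4.3.3 fitted 1 mean for each of the 8 groups over 24 arrays (lmFit and eBayes, 16 residual degrees of freedom). Two-sided p-values were adjusted by Benjamini-Hochberg over the 21214 probe sets with a symbol, and values below 0.05 were called. Lists used the probe set with the highest mean per gene, 18418 genes in all. Named were the 15 largest rises and all falls (up to 15) among called probe sets with 1 symbol and the same sign in both lines, called line differences, up to 6 called members per list (otherwise up to 3 by p) and the receptor genes. Small RNAs, pseudogenes and strongly polymorphic genes were not named. The members and lists were chosen with earlier results of these data known. The fit was tested on simulated data. Alternatives were a minimum mean signal of 5, all probe sets, median centring, cyclic loess, trended and robust eBayes, array weights, the 12 compared arrays alone, a minimum change of 0.5 and leaving out each compared array. Promoters were from RefSeq.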

Additional observations from a re-analysis of the deposited data

Results flagged for a closer look

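In 5 genes the difference between calcitriol and estrogen itself differed between the lines, by the test of that difference in limma (GM10861 minus GM10855, log2). The values were -0.99 for APOL3, -0.92 for CLMN, -0.79 for SLFN11, -0.73 for CD79A and 1.33 for CYP24A1. SLC25A20, at -0.62, did not pass (adjusted p = 0.0912). At an unadjusted p below 0.05 there were 1453 probe sets.

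Probe sets without a gene symbol in the table used here lay outside the comparisons above. When all 33297 were tested together, 10 of the 12083 unnamed ones were called, 7 higher and 3 lower with calcitriol. Probe set 7896693 held the same values as the named probe set of CD69 on all 24 arrays, so that call repeats a gene already counted. Probe set 7896714 read 9.51, 9.54 and 9.39 in GM10855 with calcitriol, against 8.51, 8.62 and 8.64 with estrogen, and 8.66, 8.64 and 8.70 in GM10861 with calcitriol, against 7.41, 7.52 and 7.47 with estrogen (difference 1.05, adjusted p = 4.18e-09). It read between 0.00 and 0.25 above the CD38 probe set on all 24 arrays, so it may not be separate from CD38. Probe set 8071642 was 1.03 higher with calcitriol (adjusted p = 0.00625). Probe set 7894823 was the lowest at -0.63 (adjusted p = 0.0244).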

How the results depend on the processing

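Calcitriol against estrogen had 121 called probe sets, 104 higher and 17 lower. The total lay between 104 and 167 under the alternatives other than a minimum change and leaving out arrays, and a minimum change of 0.5 left 34 (32 higher, 2 lower). The called lower count was less stable: it was 11 with all probe sets, 10 with arrays centred on their median, 10 in the fit of only the 12 compared arrays, 27 with trended and robust eBayes and 32 with array weights. GM10855 had 73 calls with the minimum change. GM10861 had 32 with cyclic loess, 28 with trended and robust eBayes and 38 with array weights, against 18. The line difference had 2 calls with all probe sets, 3 with centred arrays and 3 with the 12 compared arrays, against 5. The cause of these changes was not tested.

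Leaving out each compared array gave 89 to 115 calls in all, 83 to 100 higher, 6 to 16 lower, 70 to 121 in GM10855, 14 to 21 in GM10861 and 2 to 5 for the line difference. The called lower count was lowest, 6, without GM10861 calcitriol replicate 1 and without GM10861 estrogen replicate 2. It was 9 without GM10855 calcitriol replicate 2 or 3, GM10855 estrogen replicate 1 or GM10861 calcitriol replicate 2, and 10 without GM10861 estrogen replicate 3. In GM10855 the count was 70 without GM10855 calcitriol replicate 3 or GM10855 estrogen replicate 3 and 76 without GM10855 calcitriol replicate 2. In all 12 such fits 75 of the 104 rises and 4 of the 17 falls stayed called. ESR1 in calcitriol against estrogen was -0.044, turned to 0.048 without GM10855 estrogen replicate 2, and was at its lowest, -0.095, without GM10855 estrogen replicate 3. No paired analysis was possible because the replicate numbers follow accession order and pair no samples.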

Other observations

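Further called genes, chosen after their values were seen, were higher with calcitriol than with estrogen outside the lists. ACSL1, which activates long-chain fatty acids, was 0.53 higher (adjusted p = 2.32e-05), ABCD2, a peroxisomal fatty acid transporter, 0.45 higher (adjusted p = 0.00499), and SLC44A2, a choline transporter, 0.38 higher (adjusted p = 0.00421). HIPK2, a nuclear kinase, was higher by 0.55 (adjusted p = 2.29e-05), MAPKAPK2, a kinase downstream of p38, by 0.53 (adjusted p = 6.30e-04), the acetyltransferase gene KAT2B by 0.34 (adjusted p = 0.00126) and HIF1A, the oxygen-regulated transcription factor, by 0.29 (adjusted p = 0.00744). On the cell surface CD69, an early activation marker of lymphocytes, was 0.40 higher (adjusted p = 0.00158) and FCMR, the receptor for IgM, 0.36 higher (adjusted p = 0.0019). Each of these 9 genes stayed called in all 12 fits that left out an array. IRF8, a transcription factor of B cells, was 0.28 higher (adjusted p = 0.0213), but 6 of the 12 fits did not call it (adjusted p up to 0.0862).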
